A study of Mus musculus with 6 samples.

Results

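The genes described here encode the enzymes that turn glucose into pyruvate and lactate, feed pyruvate into mitochondria, and build and break down glycogen. The set was chosen by name and holds 37 genes. All 37 were among the 14549 genes measured, and all 37 had passed the filter on low values (a value of 1 or more in at least 3 pools). Polyadenylated RNA was sequenced from the outer layer of E16.5 mouse hearts, the epicardium with the subepicardium. The dKO group held 3 pools from Meis1fl/fl;Meis2fl/fl;WT1-Cre embryos, whose floxed Meis1 and Meis2 are deleted where WT1-Cre is or was active, so other cells of the layer keep both genes. The control group held 3 pools labelled Wild-type, and the labels used here do not say whether these embryos carried floxed alleles or the Cre. Each pool joined tissue of 2 hearts of 1 genotype, and at least 3 litters were used, so the errors below are between pools and not between single hearts. Pools keep the numbers of their titles, dKO 1, 2 and 3 and control 1, 2 and 4.

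In glycolysis, hexokinase and phosphofructokinase commit glucose to the pathway, the middle and lower enzymes convert the split sugar to pyruvate, and lactate dehydrogenase interconverts pyruvate and lactate. Pyruvate dehydrogenase passes pyruvate to the citric acid cycle and is switched off by its kinases. Many steps have several gene copies with their own tissue pattern: striated muscle, the heart included, is known for Pfkm, Pgam2, Eno3 and Pygm, while other forms of the same enzymes occur in most tissues. Glycogen is laid down by glycogenin, glycogen synthase and branching enzyme and is broken down by phosphorylase, which phosphorylase kinase activates. The fetal heart is known for high glycolysis and large glycogen stores, and many glycolytic genes are known targets of the hypoxia factor HIF1.

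Promoters are printed here for Pgam2 and Pgam1, the muscle and general forms of 1 enzyme, of which 1 rose and the other did not pass. They are also printed for a second muscle form, Eno3, and for Ldha. Among those shown, Ldha has most matches to ACGTG, letters bound by HIF1. Ldha has a second window, at chr7:46846832-46847131, which holds 0 matches to ACGTG and is not printed. Each window runs from 250 bases before to 50 bases after the gene's start, 5′ to 3′ on the gene's own strand, from RefSeq on GRCm38.p6. Capitals mark ACGTG, a form of the core of the hypoxia response element, and CATTCC, the core of the MCAT element bound by TEAD factors. Each was sought on either strand, so that CACGT and GGAATG are the same motifs read from the other strand. CACGTG counts as a pair of overlapping matches. Other forms of the hypoxia core were not sought and are not marked.
Pgam2, chr11:5803747-5804046 (minus strand): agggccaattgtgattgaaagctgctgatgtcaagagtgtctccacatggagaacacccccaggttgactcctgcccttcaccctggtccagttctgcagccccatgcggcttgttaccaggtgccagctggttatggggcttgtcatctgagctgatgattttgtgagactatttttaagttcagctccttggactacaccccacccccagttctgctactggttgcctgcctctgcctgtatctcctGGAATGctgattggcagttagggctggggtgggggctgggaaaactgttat
Eno3, chr11:70656926-70657225 (plus strand): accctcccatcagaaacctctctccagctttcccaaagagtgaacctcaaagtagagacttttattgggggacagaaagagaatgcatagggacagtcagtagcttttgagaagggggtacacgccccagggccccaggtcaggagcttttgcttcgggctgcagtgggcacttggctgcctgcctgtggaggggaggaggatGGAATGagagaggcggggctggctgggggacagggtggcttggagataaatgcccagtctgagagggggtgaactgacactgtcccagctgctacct
Pgam1, chr19:41911621-41911920 (plus strand): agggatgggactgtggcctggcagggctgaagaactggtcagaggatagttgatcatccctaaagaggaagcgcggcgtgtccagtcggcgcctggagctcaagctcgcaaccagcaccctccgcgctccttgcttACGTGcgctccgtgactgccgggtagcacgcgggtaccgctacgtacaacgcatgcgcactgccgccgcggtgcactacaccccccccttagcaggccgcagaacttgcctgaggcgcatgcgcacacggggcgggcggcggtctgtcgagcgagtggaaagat
Ldha, chr7:46845554-46845853 (plus strand): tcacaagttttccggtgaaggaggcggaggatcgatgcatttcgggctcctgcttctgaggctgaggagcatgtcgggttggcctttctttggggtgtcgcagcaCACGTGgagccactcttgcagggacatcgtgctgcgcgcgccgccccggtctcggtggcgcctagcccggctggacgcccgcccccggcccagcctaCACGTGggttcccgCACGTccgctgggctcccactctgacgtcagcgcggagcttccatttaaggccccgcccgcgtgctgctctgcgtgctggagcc

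All 37 genes had at least 1 such window, 56 in all. ACGTG occurred in a window of 19 of the 37 genes (51.4%), against 21.8% of the 27025 genes with a window. Among the 19 were Aldoa, Gapdh, Hk2, Ldha, Pgam1, Pgk1 and Pkm. Other forms of the hypoxia core, such as GCGTG, were not counted. The Ldha window printed above holds GCGTG, so these counts do not cover all such cores. CATTCC occurred for 7 (18.9%, against 16.6%), Pgam2 and Eno3 among them. TGACAG, the core bound by MEIS proteins, occurred for 6 (16.2%, against 21.6%), which were Aldoc, Gys1, Pdk1, Pfkfb1, Pfkfb2 and Pfkl. The MEF2 motif was sought in a strict form only, which was found in the windows of 0 of the 37 genes, against 0.636% of all. Looser forms were not counted. The Pgam2 window printed above holds CTATTTTTAA, which the strict form leaves out. The count of 0 therefore does not show that MEF2 sites are absent from these windows. TATAAA occurred in the windows of 2 genes (Eno2 and Pfkfb1; 5.41%, against 15.7%). These are matches of letters. Base composition was not matched, genes differ in their number of windows, and no test was made.

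The values are normalised read counts per 1000000 reads of a scaled library size, in which 1 read was worth 0.0487 to 0.0740. Recovered read totals over the measured genes ran from 13146322 to 20635676 in the dKO pools and from 14977143 to 15562385 in the controls. Meis2 had 44.5, 34.8 and 44.5 in the dKO pools, against 86.1, 85.6 and 63.3 in the controls (limma adjusted p = 0.00352). Meis1 had 58.5, 74.1 and 65.0 against 106, 63.6 and 63.4 (limma adjusted p = 0.521). These values cover whole genes and not the deleted exons. Control 1 stood apart from controls 2 and 4 on the first 2 principal components, and dKO 1 from dKO 2 and 3 on the second. Of the epicardial and mesothelial markers, 16 of 16 were detected, with a summed value of 534 to 632 in the dKO pools and 2544 to 3732 in the controls. Cardiomyocyte markers were likewise detected for 20 of 20, so detection alone does not tell which layer was taken.

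The enzyme genes were higher in the dKO pools almost throughout. Of the 37, 29 rose, 0 fell and 8 did not pass the test (limma adjusted p under 0.05 over all 14549 genes), where 9.81% of all genes rose and 12.2% fell. At an unadjusted p under 0.05, 1 gene was lower (Pfkfb3), and edgeR and DESeq2 each called 30 higher and 0 lower. The log2 changes (dKO minus control, each value raised by 1 before the logarithm) ran from -0.75 (Eno2) to 1.59 (Pgam2), with a median of 0.85, against 0.0016 over all genes. For 12 of the 29 the change was 1 or more, against 4.14% of all genes, and 0 of the 37 fell by 1 or more, against 6.82%. The 3 dKO pools all lay above the 3 controls for 31 genes (19.3% of all genes) and all below for 1, Pfkfb3 (21.1%). Together the 37 genes held 1.07%, 1.14% and 1.11% of the signal in dKO pools 1, 2 and 3, against 0.525%, 0.687% and 0.664% in control pools 1, 2 and 4.

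**Figure D1:**
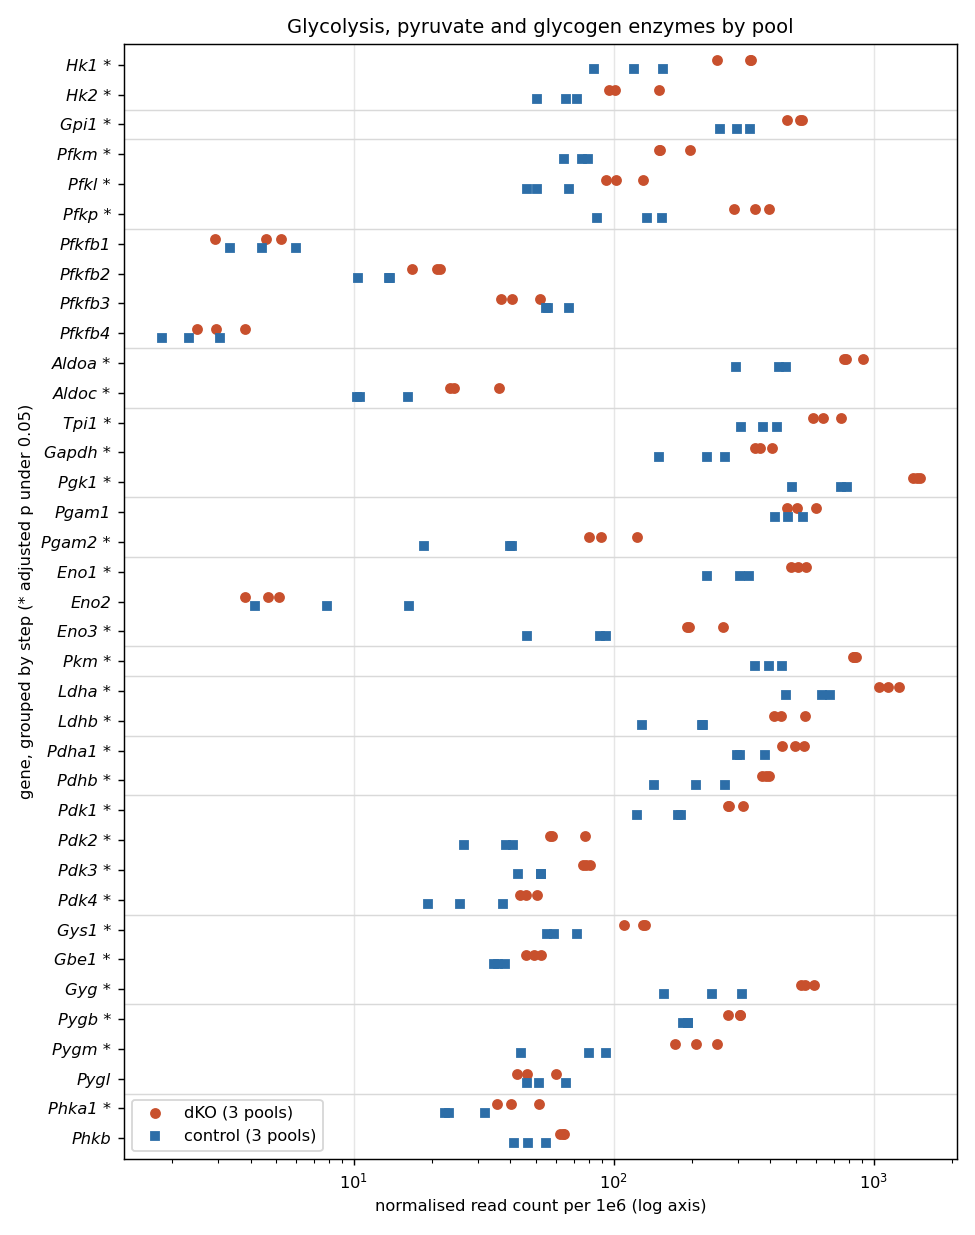
Normalised read count (log axis) of each of the 37 enzyme genes, with the 3 dKO pools as circles above the 3 control pools as squares. An asterisk marks adjusted p under 0.05; the groups do not overlap for 31 genes with dKO above, and overlap or turn round for Pfkfb1, Pfkfb3, Pfkfb4, Pgam1, Eno2 and Pygl.

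Cardiomyocyte markers moved with this rise. Of 20 such markers, 18 rose, with a median log2 change of 1.71. The summed value of the 20 was 37012 to 39915 in the dKO pools and 7126 to 15597 in the controls. Of 16 epicardial and mesothelial markers 15 fell (median -2.82), and of 7 fibroblast markers 6 fell (median -1.35). The other fibroblast marker was higher in every dKO pool than in any control (log2 change 0.42). It did not pass in limma, but it was higher at an unadjusted p under 0.05 and was called higher by DESeq2. The part of both lists in the changes below was not tested. Myh7 and Actc1, sarcomere genes, changed by 2.01 and 1.49. In limma, 1 of 5 endothelial, 2 of 5 macrophage and 0 of 8 erythroid markers fell and 0 of these rose, while 2 of 4 skeletal muscle and 1 of 3 neuronal markers rose and 0 fell. At an unadjusted p under 0.05, 1 erythroid marker was higher. In these bulk samples, more cells of a type and more RNA per cell cannot be told apart. Among the controls, control 1 had the lowest mean cardiomyocyte level (7.32, against 8.44 and 8.47 in controls 2 and 4, as mean log2 values) and the lowest value of all 6 pools for 25 of the 37 genes, against 24.98% of all genes. The dKO 1 pool had the highest value of all 6 for 22 of the 37, against 21.8% of all genes. With the mean cardiomyocyte level as a covariate, limma called 0 of the 37 higher and 0 lower, the median log2 change was 0.26, and 31 of the 37 estimates were above 0; at an unadjusted p under 0.05, 4 were higher (Pfkm, Pkm, Pdk3 and Pygb). That level did not overlap between the genotypes, so the genotype and the cardiomyocyte level cannot be told apart in these pools.

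**Figure D2:**
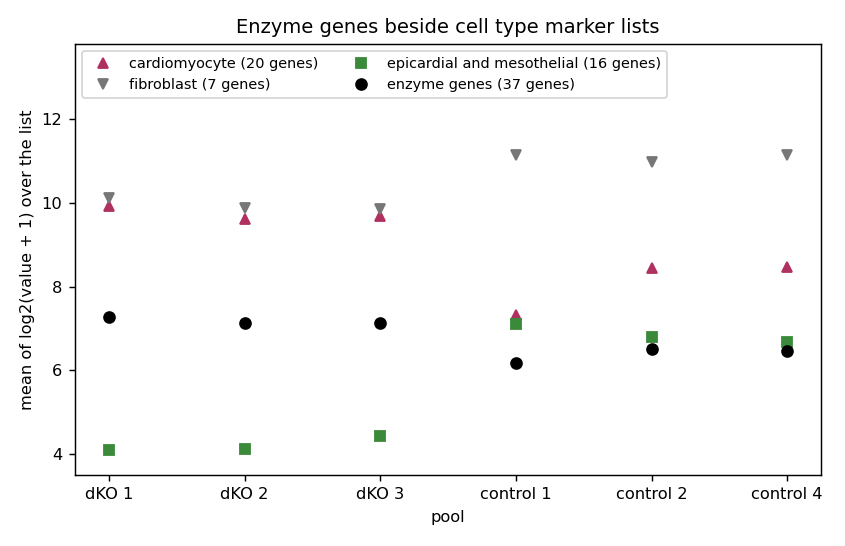
Mean of log2(value + 1) in each pool for the 37 enzyme genes (circles) and for marker lists of cardiomyocytes (triangles), fibroblasts (inverted triangles) and epicardium and mesothelium (squares). The enzyme genes sit between 7.12 and 7.28 in the dKO pools and between 6.18 and 6.52 in the controls, and control 1 is lowest for both the enzyme genes and the cardiomyocyte list.

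At the entry to the pathway, both hexokinase genes rose. Hk1, the form of most tissues, had 250.1, 338 and 334 in dKO pools 1, 2 and 3, against 83.6, 119.6 and 154 in control pools 1, 2 and 4 (log2 change 1.39, SE 0.21, limma adjusted p = 0.0014). Hk2, the insulin-responsive form of muscle and fat, had 149, 100.6 and 95.6 in the dKO pools, against 50.4, 65.5 and 71.8 in the controls (log2 change 0.85, SE 0.19, limma adjusted p = 0.0103). For both genes every dKO pool lay above every control, and dKO 1 was the highest pool for Hk2 and the lowest dKO pool for Hk1. Accordingly the log2 ratio of Hk1 to Hk2 was 0.74, 1.74 and 1.79 in the dKO pools, against 0.72, 0.86 and 1.09 in the controls, a difference of 0.54 whose groups overlapped (exact permutation p = 0.3; 0.88 without dKO 1 and 0.35 without dKO 3). Gpi1, which converts glucose 6-phosphate to fructose 6-phosphate, had 518, 529.6 and 462 in the dKO pools, against 256, 298 and 335 in the controls (log2 change 0.77, SE 0.14, limma adjusted p = 0.00332). For this gene, 11.5% of the exonic bases overlap the gene Gm26762.

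All phosphofructokinase genes, the main control point of glycolysis, rose. The platelet form Pfkp showed the largest change, with 397, 349 and 290.00 in the dKO pools, against 85.7, 134 and 153 in the controls (log2 change 1.50, SE 0.21, limma adjusted p = 0.000816). The muscle form Pfkm had 197, 150.3 and 149.7 in the dKO pools, against 64.3, 75.7 and 79.7 in the controls (log2 change 1.16, SE 0.15, limma adjusted p = 0.000485). The liver form Pfkl had 129.6, 93.2 and 102 in the dKO pools, against 50.7, 46.2 and 67.5 in the controls (log2 change 0.97, SE 0.17, limma adjusted p = 0.00332). The dKO pools did not overlap the controls for any of the 3, and 10.7% of the exonic bases of Pfkm overlap other genes. The muscle form did not gain on the platelet form. The log2 ratio of Pfkm to Pfkp was -1.01, -1.21 and -0.95 in the dKO pools, against -0.41, -0.82 and -0.93 in the controls (difference -0.34, -0.18 without control 1, exact permutation p = 0.1). That of Pfkm to Pfkl differed by 0.19 with overlapping groups (exact permutation p = 0.4; 0.33 without control 2 and 0.094 without control 4), as did that of Pfkp to Pfkl, by 0.53 (0.33 without control 1). Per kilobase of principal transcript, Pfkp was at 83.3 in dKO pools and 30.0 in controls, Pfkm at 57.5 in dKO pools and 25.4 in controls and Pfkl at 29.0 in dKO pools and 14.7 in controls. The order of Pfkp and Pfkm depends on the length used, since over all annotated exons Pfkm made up 54.1% in dKO pools and 55.9% in controls of the 3, while Pfkl was the lowest with both lengths.

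The bifunctional PFKFB enzymes, which make and remove the phosphofructokinase activator fructose 2,6-bisphosphate, gave 0 of 4 calls in limma. At an unadjusted p under 0.05, Pfkfb2 was higher and Pfkfb3 lower, and edgeR and DESeq2 each called 1, Pfkfb2. Pfkfb3 had 36.7, 40.4 and 52.1 in the dKO pools, against 54.7, 56.0 and 67.5 in the controls (log2 change -0.46, SE 0.16, limma adjusted p = 0.0653, 95% interval -0.82 to -0.11). Every dKO pool was below every control. Pfkfb2, known as the heart form, had 21.4, 20.8 and 16.7 in the dKO pools, against 13.7, 13.6 and 10.4 in the controls (log2 change 0.61, SE 0.20, limma adjusted p = 0.0502), again with no overlap but in the other direction. In edgeR on the recovered reads it was called higher (adjusted p = 0.0463). Other genes share 19.5% of its exonic bases. The log2 ratio of Pfkfb2 to Pfkfb3 was -0.75, -0.92 and -1.58 in the dKO pools, against -1.92, -1.96 and -2.59 in the controls, a difference of 1.07 (exact permutation p = 0.1), and that of Pfkfb4 to Pfkfb3 was likewise higher in every dKO pool (difference 0.73). Pfkfb1 had 5.25, 2.92 and 4.60 in the dKO pools, against 5.96, 4.44 and 3.33 in the controls (95% interval of the log2 change -0.74 to 0.57). Pfkfb4 had 2.95, 2.48 and 3.82 in the dKO pools, against 3.06, 1.82 and 2.32 in the controls (-0.36 to 0.90). Both were low and overlapped between the groups, and their intervals include a change of 0.5 in either direction for Pfkfb1 and a rise of that size for Pfkfb4.

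Of the aldolases, which split fructose 1,6-bisphosphate, Aldoa is the form of muscle and most other tissues and Aldoc that of brain. Aldoa had 911, 785 and 768 in the dKO pools, against 296, 460.2 and 431 in the controls (log2 change 1.07, SE 0.18, limma adjusted p = 0.00229). Aldoc had 24.3, 23.5 and 36.2 in the dKO pools, against 10.6, 16.2 and 10.3 in the controls (log2 change 1.12, SE 0.23, limma adjusted p = 0.00744). Both rose, with every dKO pool above every control. Aldoa made up 98.2% ± 0.571 in dKO pools and 98.3% ± 0.355 in controls (SD, n = 3 each, here and for the shares below) of the per-length signal of the pair, and the log2 ratio of Aldoc to Aldoa differed by 0.048, with overlapping groups (exact permutation p = 0.9).

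The enzymes of the middle and lower pathway without a paired form in this set also rose. Tpi1, which interconverts the triose phosphates, had 745, 586 and 640.4 in the dKO pools, against 309, 424 and 375 in the controls (log2 change 0.83, limma adjusted p = 0.00412). Gapdh, which oxidises glyceraldehyde 3-phosphate, had 407, 350.2 and 364 in the dKO pools, against 149.7, 268 and 228 in the controls (log2 change 0.83, limma adjusted p = 0.0126). Pgk1, the first ATP-yielding step, had 1500.1, 1413 and 1471 in the dKO pools, against 483, 791 and 745 in the controls (log2 change 1.15, limma adjusted p = 0.00255). In each of these, control 1 was the lowest pool and all dKO pools lay above all controls. Pkm, the pyruvate kinase gene, had 857, 840.4 and 831 in the dKO pools, against 349, 396 and 443 in the controls (log2 change 1.09, SE 0.13, limma adjusted p = 0.000433), with the smallest spread relative to its mean among the 4 in the dKO pools. Gene-level values do not separate the M1 and M2 splice forms of Pkm, and 15.3% of its exonic bases overlap another gene. Pgk1 had the highest level per kilobase of all 37 genes in both groups (801 in dKO pools and 369 in controls). Gapdh is known for its many processed pseudogenes: 78 annotated genes outside its locus matched its transcript at 95% identity or more over at least 200 bases, so its level is uncertain, since the authors' counting could split reads among copies. Such copies were also found for Gpi1, Tpi1, Pgk1, Pgam1, Eno1, Pkm, Ldha, Ldhb and Pdhb (1 to 4 each). Of all these copies only the Gapdh copy Gm3839 was itself measured, at 0.560 to 1.52 in the dKO pools and 0.216 to 2.46 in the controls.

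The 2 phosphoglycerate mutase forms, whose promoters are printed above, parted. The muscle form Pgam2 (ENSMUSG00000020475, chr11:5801640-5803733) had 123, 80.1 and 89.3 in dKO pools 1, 2 and 3, against 18.6, 40.0 and 40.7 in control pools 1, 2 and 4 (log2 change 1.59, SE 0.28, limma adjusted p = 0.00302), the largest change of the 37 genes. The general form Pgam1 (ENSMUSG00000011752, chr19:41911923-41918660) had 598, 463 and 508 in dKO pools 1, 2 and 3, against 417, 535 and 467 in control pools 1, 2 and 4 (log2 change 0.14, SE 0.15, limma adjusted p = 0.535), with overlapping groups and a 95% interval of -0.19 to 0.47, which leaves out a rise as large as the median of the set. The log2 ratio of Pgam2 to Pgam1 was -2.27, -2.52 and -2.49 in the dKO pools, against -4.41, -3.71 and -3.49 in the controls. Every dKO pool was above every control, by 1.44 in the mean and by 1.17 without control 1 (exact permutation p = 0.1, the smallest that 3 against 3 pools allow; 0.18 adjusted over the 18 pairs of forms compared). Per length, Pgam2 made up 28.1% ± 1.96 in dKO pools and 12.6% ± 3.58 in controls (SD, n = 3 each) of the pair. Pgam1 thus remained the main form in every pool, and by level per kilobase it ranked 8 of the 37 in dKO pools and 3 in controls.

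Among the enolases, the muscle form gained on the general one, which itself rose. The muscle form Eno3 (chr11:70657202-70662513) had 262, 194 and 191 in the dKO pools, against 46.2, 93.0 and 88.6 in the controls (log2 change 1.54, SE 0.25, limma adjusted p = 0.00182). The general form Eno1 had 548, 479.9 and 513 in the dKO pools, against 228, 304 and 332 in the controls (log2 change 0.85, SE 0.16, limma adjusted p = 0.00373). The log2 ratio of Eno3 to Eno1 was -1.06, -1.30 and -1.42 in the dKO pools, against -2.28, -1.70 and -1.89 in the controls, with no overlap (difference 0.70, exact permutation p = 0.1; 0.44 without control 1 and dKO 1). Eno3 made up 34.9% ± 2.92 in dKO pools and 24.5% ± 4.10 in controls of the enolase signal per length of principal transcript. Over all annotated exons its share was 56.0% in dKO pools and 43.1% in controls, above that of Eno1 in the dKO pools, so the order of the pair depends on the length used. The neuronal form Eno2 had 5.13, 3.81 and 4.65 in dKO pools 1, 2 and 3, against 16.3, 7.88 and 4.16 in control pools 1, 2 and 4 (log2 change -0.75, SE 0.39, limma adjusted p = 0.203). Its controls were spread over a wide range, with control 1 the highest and control 4 below 2 of the dKO pools. The log2 ratio of Eno2 to Eno1 was lower in every dKO pool than in any control, by -1.60, or -0.99 without control 1. The log2 change of Eno2 was -0.30 without control 1 (limma adjusted p = 0.582) and -1.17 without control 4, where it passed (limma adjusted p = 0.042). Neuronal markers were few (3 of 7 measured, of which Uchl1 rose) and low. Their summed value was 26.003 to 34.8 in the dKO pools and 16.3 to 18.9 in the controls. Their mean log2 values overlapped, at 2.87, 2.33 and 2.53 in dKO pools 1, 2 and 3, against 2.10, 2.35 and 2.31 in control pools 1, 2 and 4. The lowest log2 change of the 3 was -0.58, which did not pass. The part of these markers in the Eno2 values was not tested.

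Both lactate dehydrogenase subunits rose. Ldhb, the subunit that predominates in heart, had 543, 440.3 and 414 in the dKO pools, against 129, 218 and 221 in the controls (log2 change 1.33, SE 0.21, limma adjusted p = 0.00166). Ldha, the subunit that predominates in skeletal muscle and under hypoxia, had 1251, 1052 and 1131 in the dKO pools, against 460.5, 629.6 and 680.5 in the controls (log2 change 0.97, SE 0.17, limma adjusted p = 0.00332). Both sets of pools were separate, and the log2 ratio of Ldhb to Ldha was also higher in every dKO pool, at -1.20, -1.25 and -1.45 in the dKO pools, against -1.83, -1.52 and -1.62 in the controls (difference 0.36, 0.22 without control 1 and dKO 1; exact permutation p = 0.1). Ldha kept the larger mean share, 64.6% ± 2.05 in dKO pools and 70.0% ± 2.28 in controls per length of principal transcript.

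**Figure D3:**
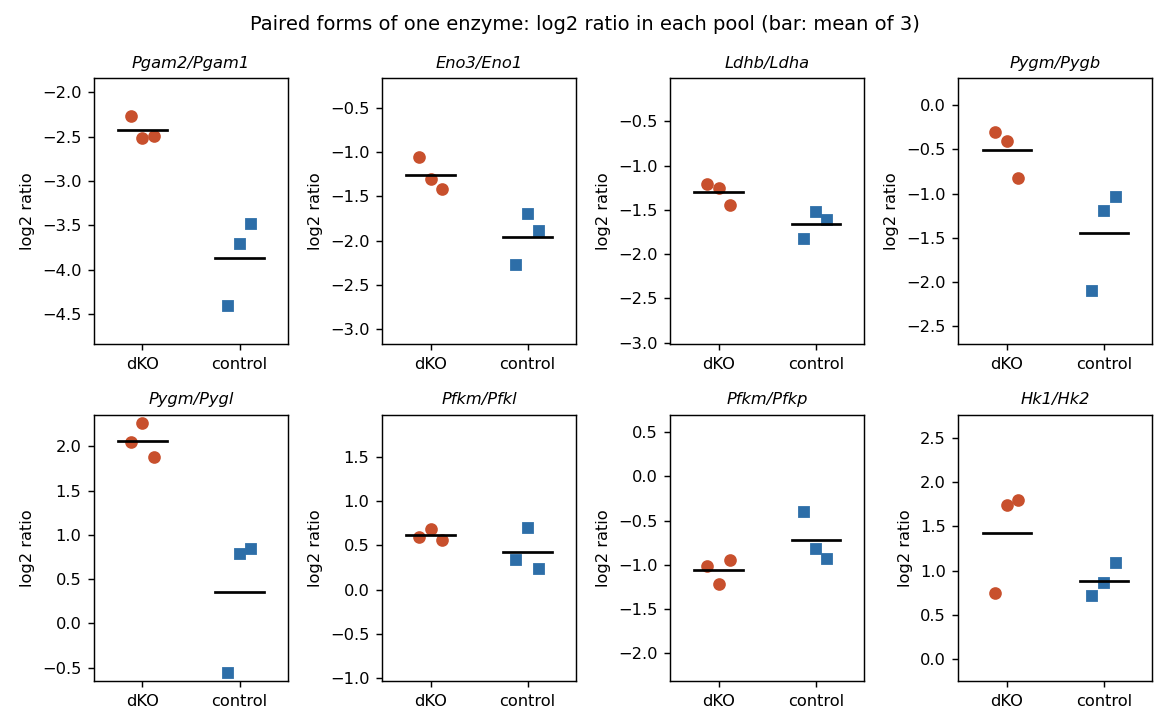
Log2 ratio of paired forms of one enzyme in each pool, dKO circles left of control squares, with a bar at the mean of 3. All panels span the same range; Pgam2/Pgam1, Eno3/Eno1, Ldhb/Ldha, Pygm/Pygb and Pygm/Pygl are higher in every dKO pool than in any control, Pfkm/Pfkp is lower, and Pfkm/Pfkl and Hk1/Hk2 overlap.

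The pyruvate dehydrogenase subunits and their kinases rose together. Pdhb, the E1 beta subunit, had 395, 385 and 371 in the dKO pools, against 143, 268 and 206 in the controls (log2 change 0.94, limma adjusted p = 0.00729). The E1 alpha subunit gene Pdha1 had 444, 539 and 498 in the dKO pools, against 299, 381 and 307 in the controls (log2 change 0.59, limma adjusted p = 0.0142). The rise of Pdha1 did not pass without control 4, dKO 2 or dKO 3, and 16.1% of its exonic bases overlap Map3k15. All 4 kinase genes, whose products inactivate the complex, were higher. Pdk1, which HIF1 is known to induce, had 274, 314 and 277 in the dKO pools, against 122, 182 and 176 in the controls (log2 change 0.86, limma adjusted p = 0.004). Pdk2 had 56.8, 77.6 and 57.8 in the dKO pools, against 26.6, 41.1 and 38.4 in the controls (log2 change 0.85, limma adjusted p = 0.0107). Pdk3 had 81.2, 78.3 and 75.9 in the dKO pools, against 52.3, 42.6 and 52.5 in the controls (log2 change 0.67, limma adjusted p = 0.00501). Pdk4, known to respond to fasting and fatty acids, had 45.9, 50.6 and 43.5 in the dKO pools, against 19.2, 37.5 and 25.6 in the controls (log2 change 0.79, limma adjusted p = 0.0253). It passed in 1 of the 6 fits that each left out 1 pool. No shift among the kinases was detected: the log2 ratios of Pdk2, Pdk3 and Pdk4 to Pdk1 differed by -0.015, -0.19 and -0.072, each with overlapping groups. Pdk1 made up 41.3% ± 0.572 in dKO pools and 39.5% ± 3.08 in controls of the per-length signal of the 4.

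The glycogen-building genes rose as well. Gyg, which encodes glycogenin, the primer of glycogen chains, had 546, 526 and 590.2 in the dKO pools, against 156, 312 and 238 in the controls (log2 change 1.29, SE 0.21, limma adjusted p = 0.00235). Gys1, the glycogen synthase of muscle and most other tissues, had 129.5, 132 and 109 in the dKO pools, against 55.5, 58.8 and 72.3 in the controls (log2 change 0.98, SE 0.14, limma adjusted p = 0.000995). Gbe1, the branching enzyme, had 52.3, 49.1 and 46.1 in the dKO pools, against 34.6, 36.0 and 38.0 in the controls (log2 change 0.43, SE 0.13, limma adjusted p = 0.037). Of these Gbe1 changed least, and it passed in 0 of the 6 fits that each left out 1 pool. All 3 had dKO pools wholly above the controls.

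On the breakdown side, the muscle phosphorylase Pygm rose most, with 249, 207 and 173 in dKO pools 1, 2 and 3, against 44.1, 80.3 and 93.2 in control pools 1, 2 and 4 (log2 change 1.57, SE 0.25, limma adjusted p = 0.00177). The brain form Pygb had 307, 276 and 306 in the dKO pools, against 192, 185 and 192 in the controls (log2 change 0.64, SE 0.11, limma adjusted p = 0.00287). The liver form Pygl had 59.6, 42.3 and 46.3 in the dKO pools, against 65.5, 46.1 and 51.7 in the controls (log2 change -0.14, SE 0.17, limma adjusted p = 0.624, 95% interval -0.53 to 0.25). Pygm and Pygb were separate between the groups and Pygl overlapped. The log2 ratio of Pygm to Pygl was 2.04, 2.27 and 1.88 in the dKO pools, against -0.56, 0.79 and 0.84 in the controls (difference 1.71). That of Pygm to Pygb was -0.30, -0.41 and -0.82 in the dKO pools, against -2.10, -1.19 and -1.04 in the controls (difference 0.93, 0.60 without control 1; exact permutation p = 0.1 for both). The ratio of Pygb to Pygl was also higher in every dKO pool (difference 0.77). Per length, Pygm made up 43.7% ± 4.23 in dKO pools and 26.8% ± 8.14 in controls of phosphorylase signal and Pygl 10.5% ± 0.922 in dKO pools and 20.9% ± 4.85 in controls. Over all annotated exons the share of Pygm was 48.4% in dKO pools and 31.7% in controls and that of Pygl 5.33% in dKO pools and 11.5% in controls, and Pygm then lay above Pygb in the mean of the dKO pools. Phka1, the muscle alpha subunit of phosphorylase kinase, had 51.6, 40.1 and 35.6 in the dKO pools, against 23.2, 31.9 and 22.4 in the controls (log2 change 0.69, limma adjusted p = 0.026). Its call held in 2 of the 6 fits that each left out 1 pool. Phkb, the beta subunit, had 62.3, 64.1 and 63.5 in the dKO pools, against 46.5, 55.0 and 41.2 in the controls (log2 change 0.41, limma adjusted p = 0.0562), separate between the groups but short of the threshold.

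Across the set, the 7 genes classed as muscle or heart forms (Hk2, Pfkm, Pgam2, Eno3, Ldhb, Pygm and Phka1) all rose, with a median log2 change of 1.33. Of the 8 genes classed as general forms (Hk1, Pfkl, Pfkp, Aldoa, Pgam1, Eno1, Ldha and Pygl) 6 rose, with a median of 0.97. Aldoa was not set against any of the 7 muscle or heart forms. Pygb, compared with Pygm above, was counted among the other forms and not among these 8. Pfkfb2, named above as the heart form, was also counted among the other forms and not among the 7. It did not pass (log2 change 0.61, limma adjusted p = 0.0502). Of the 11 genes without a paired form 10 rose (median 0.83), and of the 11 other forms 6 rose (median 0.64), so most genes of each class rose. The largest 3 changes of the 37 were those of Pgam2, Pygm and Eno3. Skeletal muscle markers were 4 of 8 measured: Ckm (log2 change 1.67) and Acta1 (1.11), which heart also expresses, rose, while Tnnt3 and Myh8 were at 0.407 to 3.37 in all pools and did not pass. With the cardiomyocyte level as a covariate, the estimates were -0.090 (SE 0.31) for Pgam2, 0.068 (SE 0.27) for Eno3 and 0.12 (SE 0.30) for Pygm. For Pfkm and Pygb they were 0.66 (SE 0.29) and 0.64 (SE 0.25), against 1.16 and 0.64 without it. None of these passed with the covariate, and differences between these genes were not tested. Controls varied more than dKO pools for 30 of the 37 genes, with a median coefficient of variation of 12.9% in dKO pools and 20.5% in controls. The share over all genes was not computed, and control 1 was the lowest of all 6 pools for 25 of the 37.

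**Figure D4:**
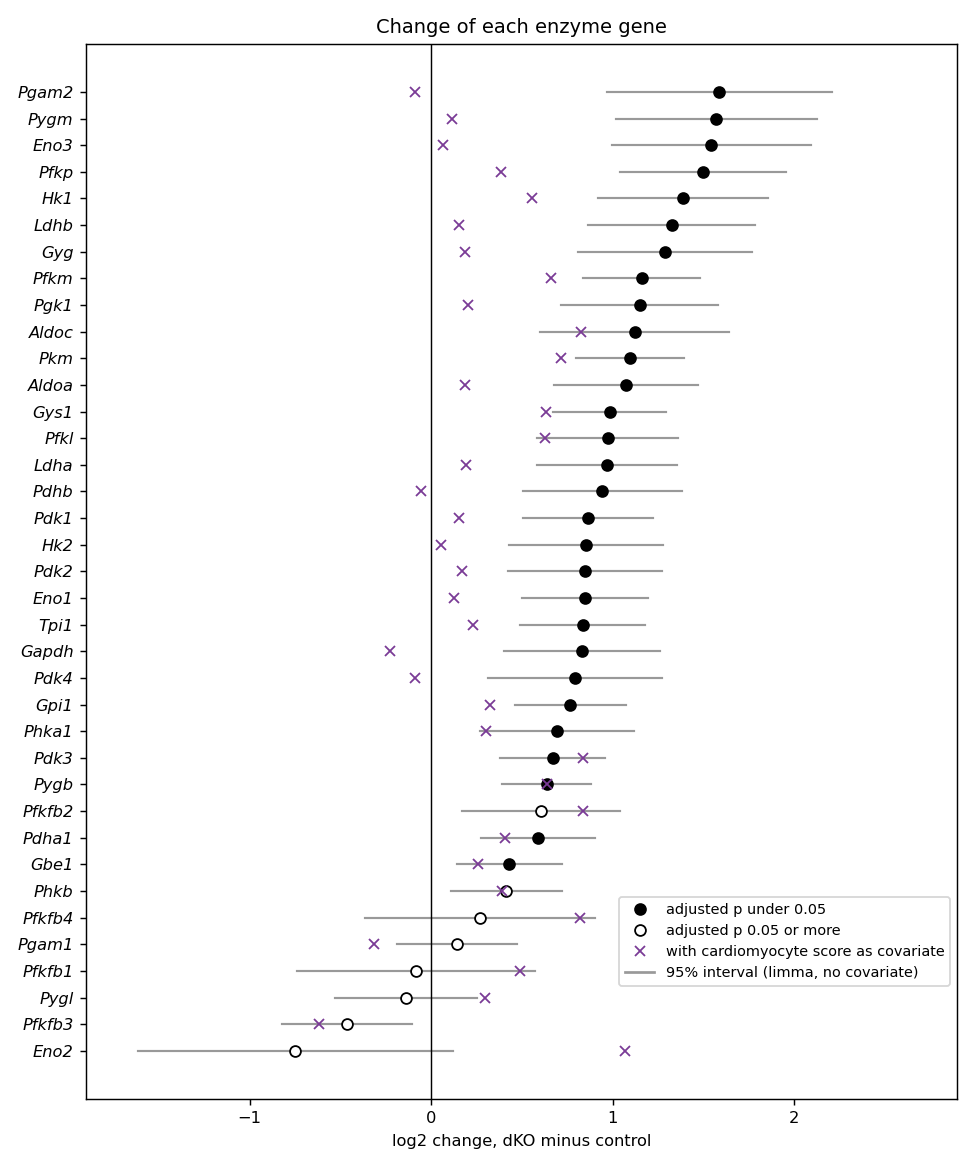
Log2 change (dKO minus control) of each of the 37 genes with its 95% interval; filled circles passed at adjusted p under 0.05 and open circles did not. Crosses give the estimate with the mean cardiomyocyte level as a covariate: Pgam2, Pygm and Eno3, at the top, move to between -0.09 and 0.12, while Pygb is at 0.64 with the covariate and 0.64 without it. The crosses are drawn without intervals, and no gene of the 37 passed with the covariate.

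Neighbouring pathways were described from 8 lists of 95 genes, 82 of them measured, of which 23 rose and 8 fell. Among 10 transporter genes of glucose and lactate, 3 rose and 2 fell. Of all genes, 9.81% rose and 12.2% fell. The insulin-responsive glucose transporter Slc2a4 had 47.8, 48.2 and 46.5 in the dKO pools, against 13.2, 25.1 and 25.05 in the controls (log2 change 1.19, limma adjusted p = 0.0047). The high-affinity transporter Slc2a3 rose by a log2 change of 0.71. The lactate exporter Slc16a3 had 123, 88.5 and 89.6 in the dKO pools, against 41.7, 58.3 and 73.0 in the controls (log2 change 0.81, limma adjusted p = 0.019). The monocarboxylate transporter Slc16a1 had 213, 219 and 271 in the dKO pools, against 312, 318 and 364 in the controls (log2 change -0.50, limma adjusted p = 0.0229). Bsg, its chaperone at the membrane, also fell (-0.52). The general glucose transporter Slc2a1 overlapped between the groups, with 141, 91.3 and 109 in the dKO pools, against 79.8, 103 and 110.1 in the controls (95% interval -0.19 to 0.60). The calls among these transporters were thus in both directions, and no test of the list was made.

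Of 8 measured genes of pyruvate entry and the pyruvate dehydrogenase complex, 3 rose, against 9.81% of all genes. They were the E2 and E3 subunit genes Dlat (log2 change 0.85) and Dld (0.83) and the E3-binding protein gene Pdhx (0.78). The pyruvate carrier genes Mpc1 (0.47) and Mpc2 (0.51) and the phosphatase genes Pdp1 (0.11) and Pdp2 (0.26), which reactivate the complex, did not pass. Of 20 further glycogen genes, 7 rose and 1 fell, against 9.81% and 12.2% of all genes. Among the glycogen-targeting subunits of protein phosphatase 1, Ppp1r3d (1.02) and Ppp1r3c (0.87) rose, as did the second alpha subunit of phosphorylase kinase, Phka2 (0.77), the laforin gene Epm2a (1.14) and the phosphoglucomutase genes Pgm2 (0.62) and Pgm5 (0.66). The gene the deposited table names Pgm2 is ENSMUSG00000025791, which GENCODE M21 names Pgm1. The gene that fell was Ugp2, which makes UDP-glucose, the donor for glycogen synthase, with 202, 211 and 197 in the dKO pools, against 270.3, 366 and 308 in the controls (log2 change -0.62, limma adjusted p = 0.00884).

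Of the branches that lead away from glycolysis, the hexosamine pathway was lower. All 5 hexosamine pathway genes were lower in every dKO pool than in any control (21.1% of all genes), and 3 passed. Gfpt2, the entry enzyme, had 11.2, 7.88 and 9.77 in the dKO pools, against 47.8, 40.2 and 38.8 in the controls (log2 change -2.03, SE 0.18, limma adjusted p = 6.35e-05). Uap1 fell by 0.59 on the log2 scale and Gfpt1 fell by 0.67. The pentose phosphate list and the list of other glycolytic forms and branch enzymes were near the shares of all genes (9.81% higher, 12.2% lower). Of 8 pentose phosphate genes 1 rose, the transaldolase gene Taldo1 (0.78), and 1 fell, H6pd, the enzyme of the endoplasmic reticulum, with 34.8, 34.9 and 35.2 in the dKO pools, against 102, 68.9 and 68.1 in the controls (log2 change -1.14, limma adjusted p = 0.00114). The cytosolic entry enzyme G6pdx had 15.3, 25.4 and 18.0 in the dKO pools, against 35.4, 27.3 and 28.2 in the controls (log2 change -0.63, limma adjusted p = 0.0542). Of 10 other glycolytic forms and branch enzymes 1 passed, Ldhd (D-lactate dehydrogenase), which was low and fell (-1.21), and other genes share 42.2% of its exonic bases. Of the 3 measured gluconeogenic genes, limma, edgeR and DESeq2 each called 0, and 1 was higher at an unadjusted p under 0.05. Pck2 had the highest level, with 41.9, 30.6 and 24.9 in the dKO pools, against 28.7, 26.5 and 32.2 in the controls. G6pc3, next by level, had 15.8, 13.1 and 14.98 in the dKO pools, against 6.70, 10.3 and 14.0 in the controls. Most fibroblast and epicardial markers moved in the direction of the hexosamine genes, as given above, and their part in this was not tested.

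Of 18 genes for upstream regulators, 9 rose and 0 fell in limma, against 9.81% and 12.2% of all genes. EdgeR called 9 and DESeq2 10 higher and 0 lower, and at an unadjusted p under 0.05, 3 were lower. The largest rise was that of Esrrg, a nuclear receptor of oxidative heart genes, with 28.9, 39.4 and 34.7 in the dKO pools, against 6.76, 12.4 and 10.2 in the controls (log2 change 1.74, limma adjusted p = 0.000636). It was followed by Prkaa2, a catalytic subunit of AMP kinase (1.67) and Ppargc1a, a coactivator of mitochondrial genes (1.59). Esrra (1.53), Mef2a (0.64) and Mef2d (0.76) also rose, as did Epas1 (0.68) and Mycn (0.82). The hypoxia factor gene Hif1a had 286, 291 and 320.2 in the dKO pools, against 231, 209 and 213 in the controls (log2 change 0.45, limma adjusted p = 0.0176). Hypoxia acts mainly on its protein, which was not measured here. Its partner Arnt had 72.6, 77.6 and 69.2 in the dKO pools, against 114, 88.0 and 83.2 in the controls and did not pass (log2 change -0.36, limma adjusted p = 0.0965).

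**Figure D5:**
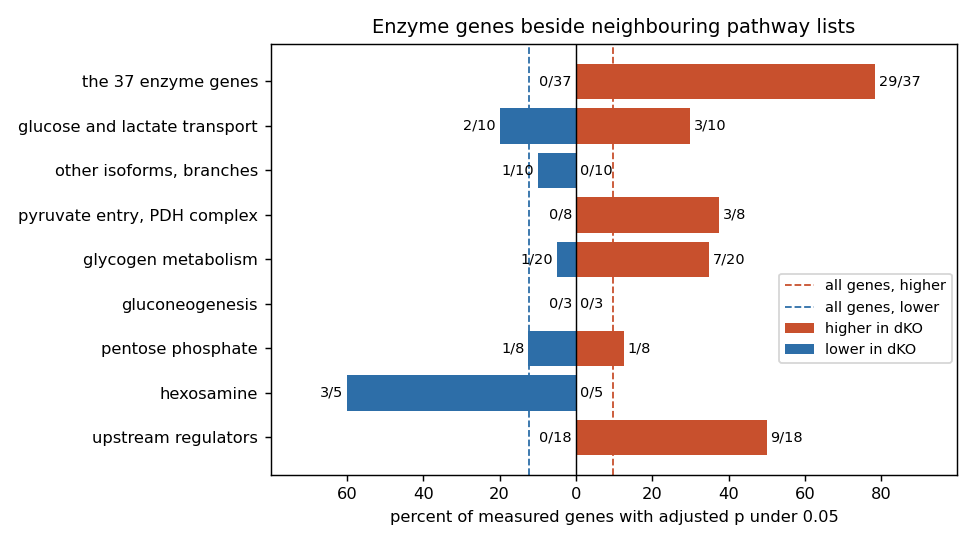
Percent of measured genes that rose (bars to the right) or fell (bars to the left) at adjusted p under 0.05, for the 37 enzyme genes and the neighbouring lists, with counts beside the bars. Dashed lines give the percent over all genes, 9.81% upward and 12.2% downward; 29 of 37 enzyme genes rose, and 3 of 5 hexosamine genes fell.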

How the data were processed

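The authors deposited 1 table of a normalised signal, with 14549 genes and 6 libraries. Per the submitters' processing notes, cutadapt and RSEM 1.3.1 on GRCm38 were used; the sources used here name no annotation release, scaling or gene filter. Each of the 87294 deposited signal values fitted whole reads, after 0.5 was added and the sum scaled to 1000000 reads of a scaled library size (tolerance 0.01 reads, 100% whole). The authors' values were compared as deposited with limma 3.58.1 in R 4.3.3, on log2 of the value plus 1, with a variance trend and no covariate, with Benjamini-Hochberg adjustment across the 14549 genes. EdgeR 4.0.16 and DESeq2 1.42.0 were run on the recovered reads as alternatives (edgeR called 1303 genes higher and 1653 lower); the fit was tested on simulated data. Ratios of paired forms were compared by exact two-sided permutation over pools. Levels per kilobase used the longest principal transcript in GENCODE M21, where 14535 of 14549 identifiers were found, and exon overlap came from the same annotation; the library kit is not stated to keep strand, so reads in overlaps can belong to either gene. Near-identical copies were sought with blastn 2.17.0.

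The 37 genes and all lists were chosen with earlier results of these data known. Named were all 37 genes and, from each pathway list, up to 6 genes past the threshold by smallest p, or the 2 of highest level where none passed; Pgam2, Eno3, Pgam1 and Ldha promoters, and other genes named beside these, were chosen after their values were seen. From the glycogen list, 1 gene is not reported here.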

Additional observations from a re-analysis of the deposited data

How the results depend on the processing

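The number of enzyme genes that rose was 26 to 31 with other pseudocounts, filters, scalings and variance models and with edgeR or DESeq2, and 25 of the 29 passed in all 6 fits that each left out 1 pool; Pdha1, Pdk4, Gbe1 and Phka1 did not. Leaving out 1 pool gave 25 to 29 enzyme genes higher and 0 to 1 lower (Eno2 without control 4, Pfkfb3 without dKO 3), a median of 0.71 to 0.95, and over all genes 898 to 1262 higher (910 without dKO 2, 898 without dKO 3) and 1269 to 1545 lower. With control 1 and dKO 1 both left out, 27 enzyme genes rose, all among the 29, with a median of 0.68; the log2 change was then 1.05 for Pgam2, 0.53 for Gapdh and 0.51 for Hk2, and all 3 passed.

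With the title numbers as a replicate block, which leaves 1 residual degree of freedom, 580 genes rose, 780 fell and 18 of the enzyme genes rose. Nothing in the labels says that the numbers pair the pools: the deviations of same-numbered pools correlated at -0.18 (number 1) and -0.20 (number 2) across genes. With the cardiomyocyte level as a covariate 59 genes rose and 223 fell, 0 enzyme genes rose (4 at an unadjusted p under 0.05), the median was 0.26, and the sign turned for Gapdh (-0.23), Pgam1 (-0.32), Pgam2 (-0.090), Eno2 (1.07), Pdhb (-0.056), Pdk4 (-0.091), Pygl (0.29) and Pfkfb1 (0.49), none of which passed there. Other sign changes were in values near 0: Pfkfb1 with quantile normalization (0.0078), without control 1 (0.089) and without dKO 2 (0.11), Pygl without control 1 (0.0015), and Pgam1 without control 1 and dKO 1 (-0.043). The log2 ratio differences that changed sign were Aldoc to Aldoa with a pseudocount of 5 (-0.14), without control 4 (-0.13) and without dKO 3 (-0.19), Pdk3 to Pdk1 without control 1 (0.035), Pdk4 to Pdk1 without control 2 (0.070), and Pdk2 to Pdk1 without control 2 (0.00045), dKO 1 (0.028), dKO 3 (0.023) or control 1 and dKO 1 (0.023). Over the 6 fits that each left out 1 pool, the value ran from -0.25 to 0.11 for Pfkfb1, -0.28 to 0.0015 for Pygl, -0.19 to 0.21 for Aldoc to Aldoa, -0.17 to 0.070 for Pdk4 to Pdk1, -0.10 to 0.028 for Pdk2 to Pdk1 and -0.39 to 0.035 for Pdk3 to Pdk1. The cause of these changes was not tested. The filter at 1 removed 0 genes, so leaving it out changed nothing.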
